A study of Rattus norvegicus with 16 samples.

Results

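The 51 genes considered here encode proteins of the sarcomere, of excitation-contraction coupling and of the muscle fibre around them. They were listed by symbol, and all probesets annotated to a listed gene and to no other gene were collapsed to their median. Of the 51 genes, 50 were measured, by 85 probesets, among 14217 genes in all. Actc1 had only probesets shared with Acta2 and is described apart, and Mylpf is listed in the annotation as Myl11. The members were divided by role into 9 measured genes of the thin filament, 11 of the thick filament, 13 of the Z disc and intermediate filament, 9 of excitation-contraction coupling and 8 others.

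Dorsal hairy skin was taken from female Sprague-Dawley rats and hybridised to Affymetrix rat expression arrays, 1 array per sample. The naïve group held 6 rats without surgery. In 2 further groups of 5 rats each, dorsal and lateral cutaneous nerves had been ligated and cut, and skin of the rostral denervated zone was taken 7 or 14 days later. All samples, the naïve ones included, held skin together with the cutaneous trunci muscle, a thin sheet of skeletal muscle that inserts onto the dermis. According to the labels this muscle is innervated from another source and was not denervated. The share of muscle in each sample is unknown, and in such bulk tissue fewer cells of a type and less RNA per cell cannot be told apart. The rats were adult, with no age in days in the sources used here. Values are log2 expression values as the authors normalised them.

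As background, a sarcomere is the contractile unit of striated muscle, in which thin filaments of actin, tropomyosin and troponin slide past thick filaments of myosin and its binding proteins. Thin filaments are anchored at the Z disc and thick filaments at the M band. Contraction starts when an action potential opens the ryanodine receptor of the sarcoplasmic reticulum, and it ends when the calcium pump takes the released calcium back up. In skin most of these proteins belong to the sheet of striated muscle beneath the dermis. Some of the genes, several tropomyosin genes among them, are also used outside it.

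At 14 days, 32 of the 50 members were lower than in naïve skin and none was higher (limma, Benjamini-Hochberg adjusted p under 0.05 over all genes), where 14.6% of all genes were lower and 8.95% higher. At 7 days, 1 member was lower and none higher. The naïve arrays disagreed with each other more than the denervated arrays did, and both counts changed with the naïve arrays that were kept. The values of each array are therefore described before the comparisons.

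The median over the 50 members was 9.75, 9.06, 10.85, 11.43, 11.54 and 11.24 in naïve replicates 1 to 6. It was 9.33, 10.61, 9.52, 10.13 and 10.31 in the 7-day arrays, and 9.17, 9.22, 9.52, 9.36 and 9.48 in the 14-day arrays. Naïve replicates 1 and 2 thus lay at or near the level of the 14-day arrays, and naïve replicates 3 to 6 lay above every denervated array. For 48 of the 50 members, naïve replicates 1 and 2 were the lowest of the naïve arrays, which held for 24.0% of all genes. For 37 members, naïve replicates 4 and 5 were the highest, against 19.8% of all genes.

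Markers of the hair follicle divided the naïve arrays in the same way. A score, the mean over 11 measured hair shaft and inner root sheath genes of each value minus the gene's mean over all arrays, was 1.86 and 2.18 in naïve replicates 1 and 2 and between -4.02 and -3.83 in naïve replicates 3 to 6. The score ranged from -0.96 to 1.70 at 7 days and from 1.95 to 2.06 at 14 days. All 11 genes were higher at 14 days than in naïve skin, against 8.95% of all genes. Naïve replicates 4 and 5 also had the lowest scores for macrophage genes (-1.61 and -2.02) and for fibroblast genes (-1.28 and -2.16). The naïve means of 13 other genes that define skeletal muscle ran from 5.91 for Clcn1 to 13.22 for Tnni2. Clcn1 and Scn4a (6.61) lay below the median over all genes (6.88). Of the 13, 9 were lower at 14 days, against 14.6% of all genes. Control probesets that bear on RNA quality gave unlike pictures. For beta-actin, the 3′ minus the middle signal was 0.176 and 0.228 in naïve replicates 1 and 2, and 0.519, 0.962, 1.199 and 0.848 in naïve replicates 3 to 6. It ran from 0.20 to 0.29 at 7 days and from 0.04 to 0.28 at 14 days, so naïve replicates 3 to 6, where the members were high, lay above all other arrays. The 3′ minus the 5′ signal of beta-actin ran from 0.14 to 0.69 in naïve arrays, from 0.58 to 0.69 at 7 days and from 0.46 to 0.74 at 14 days. For GAPDH, the 3′ minus the middle signal stayed between -0.11 and 0.05 in all arrays, and the 3′ minus the 5′ signal ran from 0.29 to 0.34 in naïve arrays, from 0.23 to 0.42 at 7 days and from 0.32 to 0.37 at 14 days. The part of RNA quality in the members' levels was not tested.

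**Figure D1:**
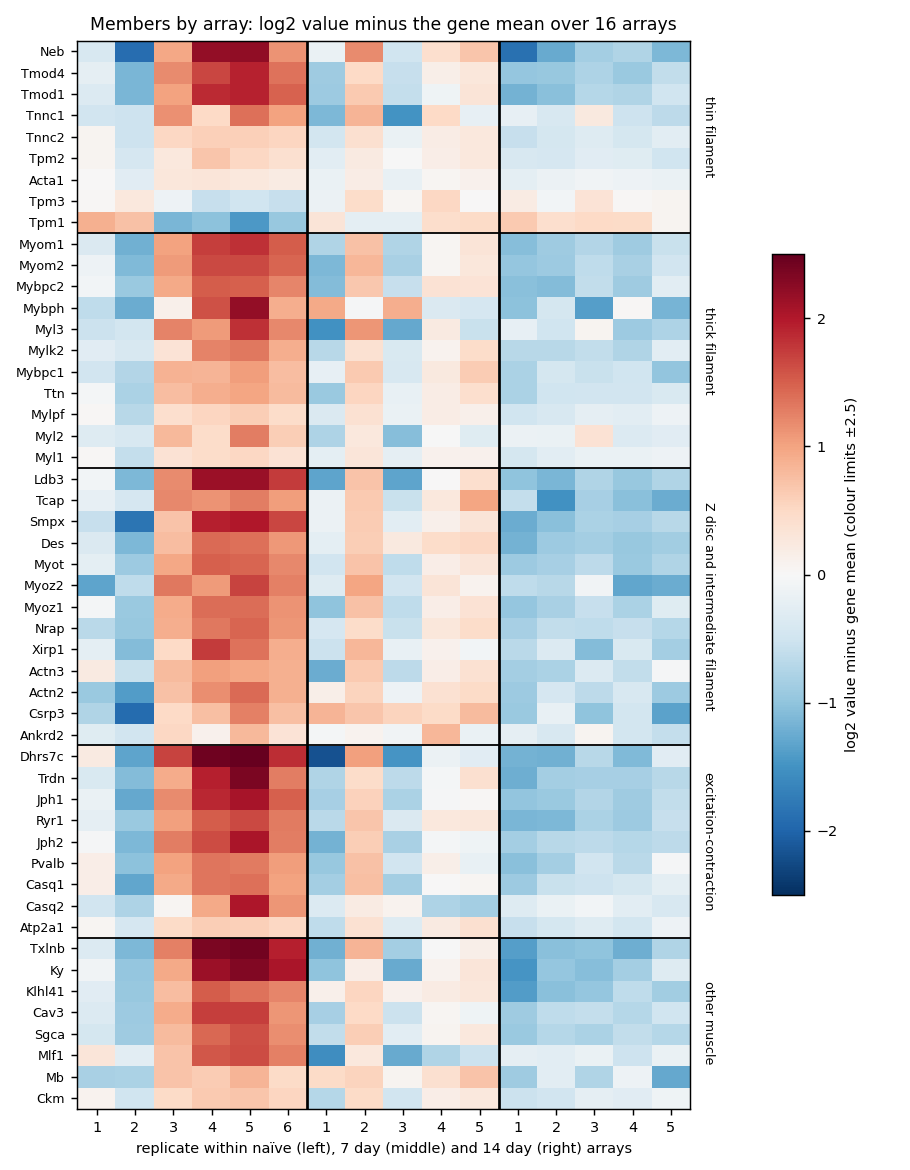
Each row is 1 of the 50 measured members, grouped by role and ordered by the change at 14 days, and each column is 1 array; colour gives the log2 value minus the gene's mean over the 16 arrays, with colours limited at 2.5 in either direction. Naïve replicates 3 to 6 are red in most rows, naïve replicates 1 and 2 are blue like the 14-day arrays in most rows, and Tpm1 runs the other way.

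**Figure D2:**
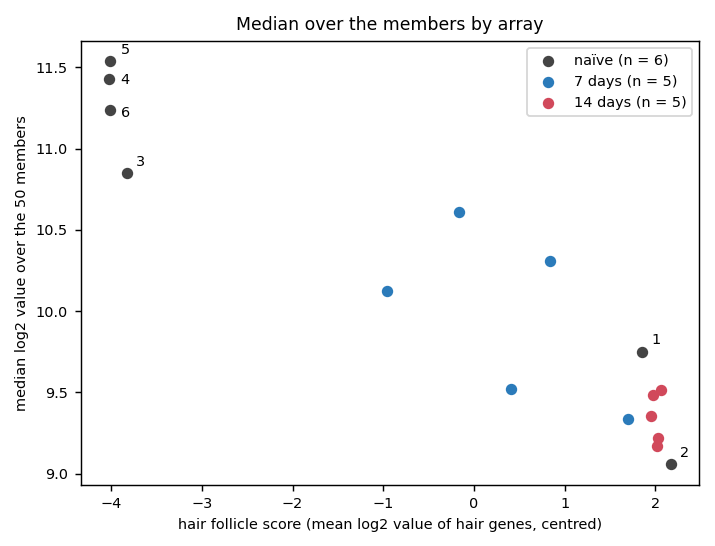
Each point is 1 array, with the score of 11 hair follicle genes (centred log2 units) on the x axis and the median log2 value over the 50 members on the y axis; numbers mark the naïve replicates. The 14-day arrays lie between 9.17 and 9.52, next to naïve replicates 1 and 2, and naïve replicates 3 to 6 lie between 10.85 and 11.54.

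The spread among naïve arrays was wide for nearly all members. The median SD over the members was 1.02 in naïve skin, 0.553 at 7 days and 0.220 at 14 days, against 0.176, 0.148 and 0.098 over all genes. All 50 members had a larger SD in naïve than in 14-day skin, and 81.1% of all genes did. The distance from the lowest to the highest naïve array had a median of 2.45 and ran from 0.57 for Acta1 to 4.13 for Neb, which encodes the giant thin-filament protein nebulin. The 14-day mean fell inside the range of the naïve arrays for 46 of the 50 members, against 69.9% of all genes.

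The members lay high on the scale of the arrays. Their naïve means ran from 7.03 (Mybph, a myosin-binding protein) to 13.84 (Acta1, the skeletal muscle actin), with a median of 10.61 against 6.88 over all genes, and 15 members were in the top 1 percent of genes. The highest single value of the table was 14.39, and 5 members had a naïve mean within 1 log2 unit of it. These were Acta1 (13.84), Mylpf (13.68), which encodes the fast regulatory myosin light chain, Atp2a1 (13.64), the calcium pump of fast fibres, Ckm (13.60), the muscle creatine kinase, and Tnnc2 (13.55), fast troponin C. These are signals of different probes and give no order of RNA levels between genes.

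Near the top of the scale both the spread and the changes were small. Acta1 measured 13.44 at the lowest, 13.95 at the median and 14.00 at the highest of the 6 naïve arrays, 13.54, 13.90, 13.52, 13.76 and 13.82 at 7 days, and 13.48, 13.56, 13.62, 13.59 and 13.55 at 14 days. All 14-day arrays lay within the naïve range, and the change at 14 days was -0.28 (SE 0.10, adjusted p = 0.0528). The 5 members near the top had a median naïve range of 1.11 and a median log2 fold change at 14 days of -0.65 (from -0.71 to -0.28), whereas the other 45 had a median naïve range of 2.55 and a median change of -1.34 (from -2.16 to 0.91). Whether saturation of the probes limits these values was not tested.

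**Figure D3:**
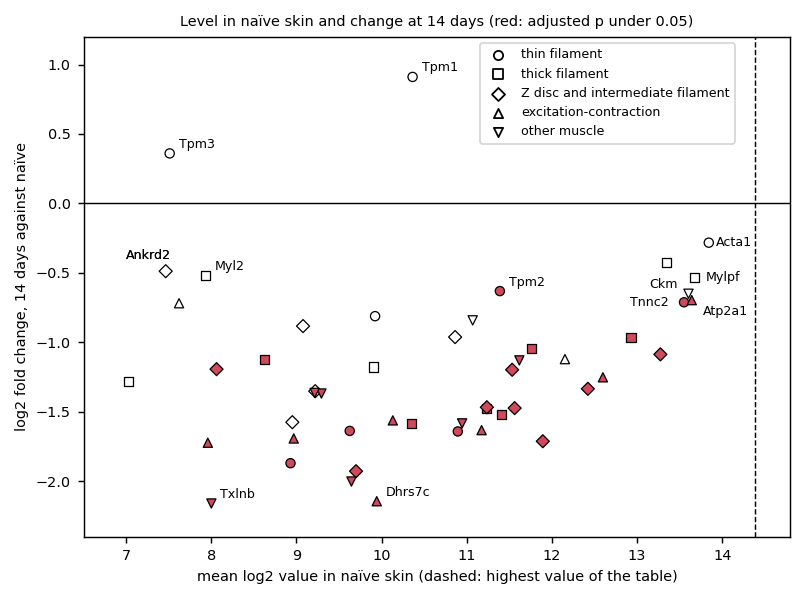
Each point is 1 member, with its mean log2 value over the 6 naïve arrays on the x axis and its log2 fold change at 14 days on the y axis; shapes give the role, red marks an adjusted p under 0.05, and the dashed line is the highest value of the table, 14.39. The 5 members within 1 log2 unit of that line changed by -0.71 to -0.28, and Tpm1 and Tpm3 lie above 0.

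Promoters were available for 39 of the 51 listed genes, 44 in all, in RefSeq (GRCr8 assembly), and are shown here because most of these genes varied together across the arrays. Within the 250 bases before the start site, both strands were searched for CAGCTG (an E-box), for the wider E-box CANNTG, which includes CAGCTG, for TATAAA, and for the MEF2 and CArG motifs of muscle genes. CAGCTG occurred in 31.8% of the members' promoters and in 11.97% of 33469 promoters of all genes, MEF2 in 22.7% and 2.96%, CArG in 6.8% and 1.5%, CANNTG in 72.7% and 65.54%, and TATAAA in 13.6% and 12.93%. A match describes letters in this window and is no site of binding. Below are the 250 bases before the start of Acta1 (chr19:68784195-68784444, minus strand), Ckm (chr1:88189211-88189460, plus strand), Des (chr9:84299376-84299625, plus strand), which encodes the intermediate filament protein desmin, and Klhl41 (chr3:74841868-74842117, plus strand), a sarcomere-associated adaptor of a ubiquitin ligase, with every match to CAGCTG, to TATAAA, to MEF2 or to CArG in capitals. Acta1 and Ckm lie near the top of the scale, and Des and Klhl41 differed between 7 and 14 days.
Acta1: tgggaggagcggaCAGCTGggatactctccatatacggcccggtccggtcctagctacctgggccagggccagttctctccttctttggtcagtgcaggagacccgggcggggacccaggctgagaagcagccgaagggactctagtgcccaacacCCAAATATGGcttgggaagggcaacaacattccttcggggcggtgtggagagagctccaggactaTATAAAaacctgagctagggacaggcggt
Ckm: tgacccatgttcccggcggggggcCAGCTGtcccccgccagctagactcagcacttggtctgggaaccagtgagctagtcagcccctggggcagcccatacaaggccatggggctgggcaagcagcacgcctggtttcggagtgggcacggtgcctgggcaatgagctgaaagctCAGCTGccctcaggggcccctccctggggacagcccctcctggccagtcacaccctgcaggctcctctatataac
Des: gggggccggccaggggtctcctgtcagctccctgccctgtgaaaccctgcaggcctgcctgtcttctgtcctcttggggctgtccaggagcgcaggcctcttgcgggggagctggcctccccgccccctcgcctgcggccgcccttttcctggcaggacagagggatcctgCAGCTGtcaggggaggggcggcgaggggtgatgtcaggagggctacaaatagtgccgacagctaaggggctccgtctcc
Klhl41: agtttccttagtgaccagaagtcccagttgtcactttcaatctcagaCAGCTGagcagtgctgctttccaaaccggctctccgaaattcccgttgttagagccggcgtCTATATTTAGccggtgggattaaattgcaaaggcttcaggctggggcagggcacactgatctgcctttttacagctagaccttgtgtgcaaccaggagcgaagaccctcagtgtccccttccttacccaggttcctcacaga
Acta1 held 1 match each to CAGCTG, CArG and TATAAA, Ckm 2 matches to CAGCTG, Des 1 match to CAGCTG, and Klhl41 1 match each to CAGCTG and MEF2.

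At 14 days against naïve skin, 48 of the 50 members had a negative log2 fold change, with a median of -1.23 against 0.02 over all genes. The 32 members called lower comprised 5 of 9 in the thin filament, 6 of 11 in the thick filament, 8 of 13 in the Z disc, 7 of 9 in excitation-contraction coupling and 6 of 8 others. No member was called higher. At an unadjusted p under 0.05, 44 members were lower and 2 higher, against 20.8% and 18.8% of all genes. Only Tcap had every 14-day array below every naïve array, where 6.66% of all genes did.

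These counts depended on the naïve arrays, which also differed in the hair follicle score and in the beta-actin control. Without naïve replicates 1 and 2, 48 members were lower, 2 were higher (Tpm1 and Tpm3), and the median change was -1.83, with 21.8% of all genes lower. Without naïve replicates 4 and 5, 1 member (Tcap) was lower, 28 at an unadjusted p under 0.05, the median change was -0.84, and 4.98% of all genes were lower. With the hair follicle score added as covariate, limma called 0 members lower, 1 at an unadjusted p under 0.05, and the median change was -0.09. Leaving out single arrays, 8 to 45 members were lower, and the share of all genes called was not computed for these fits. The count was 18, 8, 11 and 9 without naïve replicate 3, 4, 5 or 6, and 11, 12, 16, 14 and 16 without 14-day replicate 1, 2, 3, 4 or 5. Since the hair follicle score itself differed between the groups, the hair follicle state and the denervation cannot be told apart by this fit. The exact permutation test also called 0 after adjustment, with 36 members lower at an unadjusted p under 0.05. For the covariate fit and the permutation test the share of all genes called is not given here. Their counts therefore cannot be set against all genes.

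In the thin filament, Neb, Tmod4, Tmod1, Tnnc2 and Tpm2 were lower at 14 days. Tmod1 and Tmod4 encode tropomodulins, which cap the pointed ends of the actin filaments, and changed by -1.64 each. Neb measured 6.32, 9.28 and 10.44 at the lowest, median and highest naïve array, 8.07, 9.42, 7.74, 8.65 and 8.93 at 7 days, and 6.37, 6.98, 7.37, 7.47 and 7.10 at 14 days. The lowest naïve array lay below all of the 14-day arrays, and the change was -1.87 (SE 0.61, adjusted p = 0.0387). Tnnc2 fell by 0.71 (SE 0.20, adjusted p = 0.0215) and Tpm2, a muscle tropomyosin, by 0.63 (SE 0.16, adjusted p = 0.0148). Single probesets of Tpm2 were at -0.95 and -0.32. Tnnc1, the troponin C of slow and cardiac muscle, differed by -0.81 (SE 0.44, adjusted p = 0.181).

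In the thick filament and M band, Myom1, Myom2, Mybpc2, Mylk2, Mybpc1 and Ttn were lower at 14 days. Myom1 and Myom2 encode myomesins, which crosslink thick filaments at the M band, and changed by -1.58 and -1.52. Mybpc2, the fast myosin-binding protein C, changed by -1.48 (SE 0.43, adjusted p = 0.026), and Mybpc1, the slow form, by -1.04. Ttn encodes titin, the elastic protein that spans from the Z disc to the M band. It measured 11.69, 13.27 and 13.48 at the lowest, median and highest naïve array, 11.55, 13.03, 12.30, 12.68 and 12.91 at 7 days, and 11.70, 11.99, 12.02, 12.01 and 12.11 at 14 days. Every 14-day array of Ttn lay within the naïve range, and its change was -0.96 (SE 0.31, adjusted p = 0.0388). Mylk2, the myosin light chain kinase of skeletal muscle, changed by -1.13 (SE 0.31, adjusted p = 0.022), with single probesets at -2.03 and -0.22.

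The myosin light chains among the members did not pass the threshold. Myl1 and Mylpf, the fast essential and regulatory chains, differed by -0.42 (adjusted p = 0.0836) and -0.53 (adjusted p = 0.0658). Myl2 and Myl3, the slow chains, differed by -0.52 (adjusted p = 0.203) and -1.18 (adjusted p = 0.092), with single probesets of Myl2 at -0.985 and -0.059. Mybph differed by -1.28 (SE 0.53, adjusted p = 0.0903).

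At the Z disc, Ldb3, Tcap, Des, Myot, Myoz1, Nrap, Xirp1 and Actn3 were lower at 14 days, and Smpx, Myoz2, Actn2, Csrp3 and Ankrd2 did not pass, with changes from -1.58 to -0.49. Tcap encodes telethonin, which caps titin at the Z disc. It measured 10.80, 12.31 and 12.49 at the lowest, median and highest naïve array, 11.07, 11.87, 10.67, 11.48 and 12.21 at 7 days, and 10.63, 9.70, 10.40, 10.18 and 9.98 at 14 days. Its 14-day arrays did not overlap with the naïve arrays or with the 7-day arrays. Tcap was 3.28-fold lower at 14 days than in naïve skin (log2 fold change -1.71, SE 0.35, adjusted p = 0.0059), lower in all 5 arrays. Its exact permutation p was 0.00649, where 0.00216 is the smallest that 462 regroupings can give.

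Des measured 9.91, 11.96 and 12.46 at the lowest, median and highest naïve array, 10.79, 11.65, 11.28, 11.49 and 11.55 at 7 days, and 9.86, 10.14, 10.18, 10.09 and 10.16 at 14 days. Only naïve replicate 2 reached down to the 14-day arrays, and the change was -1.47 (SE 0.38, adjusted p = 0.0168). Ldb3, a PDZ and LIM protein of the Z disc, changed by -1.93 (SE 0.56, adjusted p = 0.0258), and all 6 of its probesets were negative. Actn2 and Actn3, the alpha-actinins that crosslink actin at the Z disc, differed by -0.96 (adjusted p = 0.107) and -1.09 (adjusted p = 0.0345), and Actn2 against Actn3 was not tested.

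In excitation-contraction coupling, Dhrs7c, Trdn, Jph1, Ryr1, Jph2, Pvalb and Atp2a1 were lower at 14 days. Ryr1, the calcium release channel of the sarcoplasmic reticulum, measured 9.52, 11.61 and 12.11 at the lowest, median and highest naïve array, 9.78, 11.14, 10.09, 10.72 and 10.73 at 7 days, and 9.30, 9.32, 9.66, 9.55 and 9.88 at 14 days. Naïve replicate 2 lay among the 14-day arrays of Ryr1, and the others lay above them. Ryr1 was 3.10-fold lower (log2 fold change -1.63, SE 0.41, adjusted p = 0.0153). The partners of the channel changed likewise. Trdn (triadin) changed by -1.72 (SE 0.50, adjusted p = 0.0261), and Jph1 and Jph2, the junctophilins that tie the surface membrane to the reticulum, by -1.69 and -1.56.

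Dhrs7c, a dehydrogenase of the sarcoplasmic reticulum, had the largest change of this group, -2.15 (SE 0.67, adjusted p = 0.0331), a 4.42-fold lower level. It measured 7.36, 10.45 and 11.35 at the lowest, median and highest naïve array, 6.52, 9.72, 7.22, 8.54 and 8.41 at 7 days, and 7.50, 7.49, 7.99, 7.58 and 8.42 at 14 days. At 7 days Dhrs7c thus spanned a wider range than at 14 days, with single arrays below all of the 14-day arrays. Pvalb, the calcium buffer parvalbumin of fast fibres, changed by -1.25 (SE 0.39, adjusted p = 0.0345), and Atp2a1 by -0.70 (SE 0.21, adjusted p = 0.0309). The calsequestrins, which bind calcium inside the reticulum, did not pass, with Casq1 at -1.12 (adjusted p = 0.0635) and Casq2, the slow and cardiac form, at -0.72 (adjusted p = 0.193).

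Among the other members, Txlnb, Ky, Klhl41, Cav3, Sgca and Mlf1 were lower at 14 days. Txlnb (beta-taxilin) had the largest change of all members, -2.16 (SE 0.58, adjusted p = 0.0196), and Ky, a peptidase-like protein of the Z disc, was 4.01-fold lower (adjusted p = 0.0196). Cav3, the caveolin of muscle, and Sgca, alpha-sarcoglycan of the dystrophin complex, changed by -1.37 each. Ckm and Mb did not pass, at -0.65 (SE 0.23, adjusted p = 0.0536) and -0.84 (SE 0.32, adjusted p = 0.0632). Mb encodes myoglobin, the oxygen-binding protein of muscle.

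**Figure D4:**
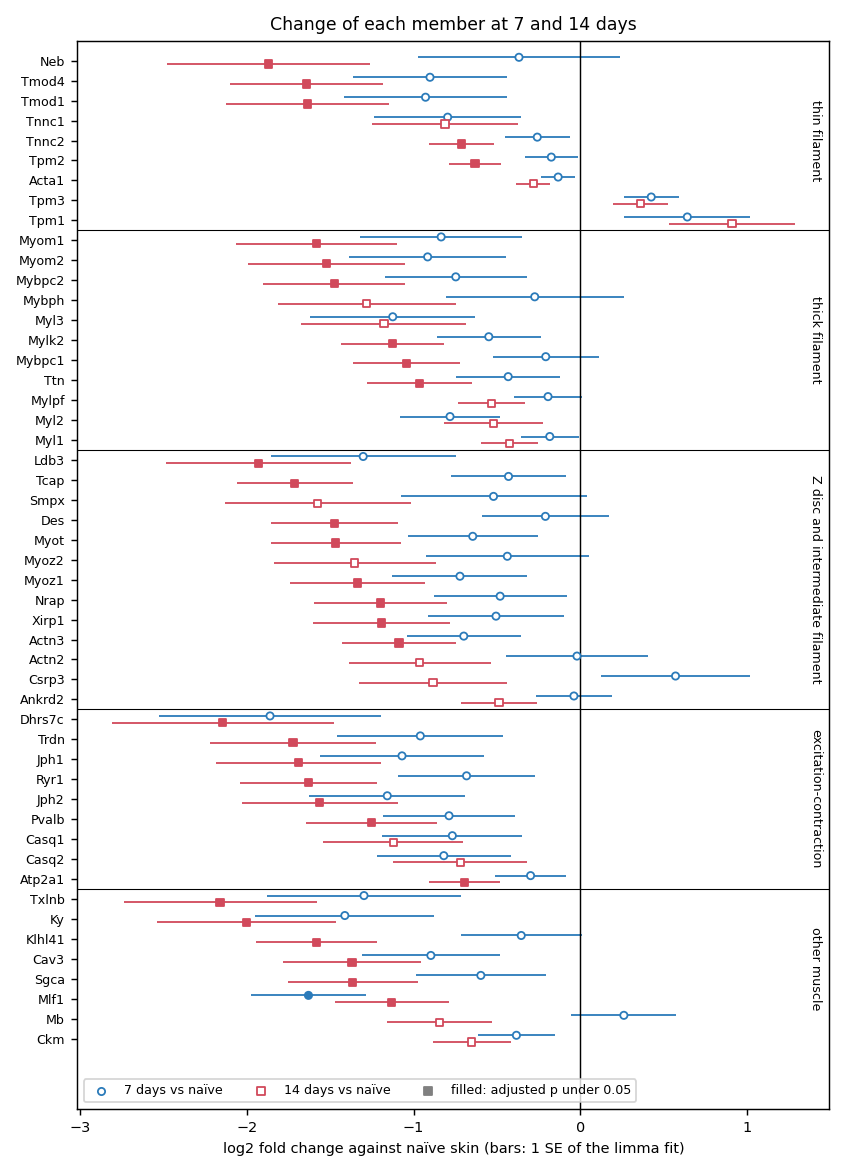
Each row is 1 member, grouped by role, with its log2 fold change against naïve skin at 7 days (blue circles) and 14 days (red squares) on the x axis; bars are 1 SE of the limma fit, and filled symbols have an adjusted p under 0.05. At 7 days the only filled symbol is Mlf1, and at 14 days 32 symbols are filled, all to the left of 0.

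At 7 days, 46 of the 50 members had a negative change, with a median of -0.57 against -0.02 over all genes. The single member called lower stood beside 2.66% of all genes lower and 7.85% higher, and 10 members were lower and 1 higher at an unadjusted p under 0.05 (13.6% and 15.9% of all genes). That member was Mlf1, which encodes the myeloid leukaemia factor 1 protein. It measured 10.49, 11.74 and 12.38 at the lowest, median and highest naïve array, 9.20, 11.01, 9.49, 10.00 and 10.23 at 7 days, and 10.54, 10.48, 10.59, 10.23 and 10.59 at 14 days. The 7-day arrays overlapped with the naïve arrays through 7-day replicate 2, and Mlf1 was 3.10-fold lower (log2 fold change -1.63, SE 0.34, adjusted p = 0.00993). At 14 days its change was -1.13 (SE 0.34, adjusted p = 0.0308), and the difference between the times was 0.50 (SE 0.36, adjusted p = 0.32).

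As at 14 days, the count at 7 days followed the naïve arrays. Without naïve replicates 1 and 2, 44 members were lower and 2 higher (Tpm1 and Tpm3), with 16.4% of all genes lower, and without naïve replicate 2 alone 21 were lower. The count was 2 without naïve replicate 1 or 7-day replicate 2. Without naïve replicates 4 and 5 the count was 0, with 1 member lower at an unadjusted p under 0.05 and 0.324% of all genes called lower. Array weights gave 35 members lower. Mlf1 remained called when each of the 16 arrays was left out in turn (adjusted p from 0.00425 to 0.032) and with the hair follicle score added as covariate (-1.10, SE 0.27, adjusted p = 0.0147). Without naïve replicates 4 and 5 its adjusted p was 0.0607. With the same covariate 4 members were higher at 7 days (Actn2, Csrp3, Des and Mb), and the median change was 0.02. The share of all genes called was not computed with array weights, nor the share higher with this covariate. These counts therefore cannot be set against all genes.

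At 7 days, 12 of 14 macrophage genes, 5 of 10 fibroblast genes and 7 of 9 endothelial genes were higher than in naïve skin, against 7.85% of all genes. The macrophage score ran from -2.02 to 0.61 in naïve arrays, from 0.37 to 1.12 at 7 days and from -0.08 to 0.34 at 14 days. The part of these cell types in the members' levels was not tested.

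Between 7 and 14 days the naïve arrays enter the comparison only through the shared estimate of the spread. Here 5 members were lower at 14 than at 7 days and none was higher, where 10.1% of all genes were lower and 8.86% higher. In this fit the share of members lower was thus near that of all genes. The count depended on the fit, with 20 members lower when only the arrays of the 2 times were used. At an unadjusted p under 0.05, 10 members were lower and none higher, against 18.7% and 17.8% of all genes. The median difference was -0.61, against -0.005 over all genes. The 5 were Tcap (-1.28, SE 0.36, adjusted p = 0.0266), Mb (-1.10, SE 0.33, adjusted p = 0.0324), Klhl41 (-1.23, SE 0.38, adjusted p = 0.0364), Des (-1.27, SE 0.40, adjusted p = 0.0383) and Csrp3 (-1.46, SE 0.46, adjusted p = 0.0412), which encodes the muscle LIM protein of the Z disc. In 13 members all 14-day arrays were below all 7-day arrays, 7 of them at the Z disc, against 11.6% of all genes. None of the 9 members of excitation-contraction coupling was among the 13. With 9 genes, 0 cannot be told from a share of 11.6%, and no difference between roles was tested.

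Csrp3 measured 9.83, 9.66, 9.53, 9.45 and 9.77 at 7 days and 8.04, 8.79, 7.97, 8.51 and 7.65 at 14 days, with naïve arrays at 7.05, 9.60 and 10.25 at the lowest, median and highest. Mb measured 11.36, 11.44, 10.95, 11.30 and 11.60 at 7 days and 10.00, 10.63, 10.14, 10.76 and 9.61 at 14 days, with naïve arrays at 10.08, 11.45 and 11.74. Klhl41 measured 10.47, 10.88, 10.44, 10.55 and 10.61 at 7 days and 8.95, 9.29, 9.38, 9.71 and 9.47 at 14 days, with naïve arrays at 9.39, 11.34 and 11.85. In these genes the 7-day arrays were close to each other and lay within the naïve range, and the 14-day arrays lay lower without overlap.

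Other members changed little between the times. Tnnc1, Myl3, Myl2 and Casq2, which belong to slow or cardiac muscle, differed by -0.02, -0.05, 0.26 and 0.10 from 7 to 14 days, and their fast counterparts Tnnc2, Myl1, Mylpf and Casq1 by -0.45, -0.24, -0.34 and -0.35. None of these passed, and no difference between slow and fast forms was tested.

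Calls between 7 and 14 days were sensitive to single arrays. No member was called without 7-day replicate 2, without 7-day replicate 4 or without 14-day replicate 5, with 6, 7 and 9 lower at an unadjusted p under 0.05, and 10 were called without naïve replicate 2. The count was 1 without 7-day replicate 5 or 14-day replicate 1 or 3, 2 without 7-day replicate 3 or 14-day replicate 2, and 3 without 14-day replicate 4. With only the 10 arrays of the 2 times in the fit, 20 members were lower. The exact permutation test, for which 252 regroupings allow no p under 0.00794, gave 13. Only that smallest p passed after adjustment, and it requires groups without overlap. These are therefore the same 13 members as those without overlap, beside 11.6% of all genes, and no separate result. The share of all genes called was not computed with only the 10 arrays or without single arrays. With the hair follicle score added as covariate the same 5 genes were lower, with differences from -0.92 to -0.74, and Mlf1 was higher (0.87, adjusted p = 0.0303). After a further quantile normalisation none was called, with 6 lower at an unadjusted p under 0.05.

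To ask which members departed from the others, the median over the other members was subtracted in each array and the fit repeated. On this relative scale, 6 members were higher at 14 days than in naïve skin and 1 was lower. Since most genes of the table do not belong to muscle, 90.9% of all genes were higher and 0.0563% lower on it, and the adjustment over all genes then barely raises p-values of the members. The members higher were Tpm1 (2.36, adjusted p = 0.00985), Tpm3 (1.70, adjusted p = 0.00985), Acta1 (0.96, adjusted p = 0.0249), Ankrd2 (0.85, adjusted p = 0.041), Myl1 (0.82, adjusted p = 0.0392) and Myl2 (0.82, adjusted p = 0.0353), and Txlnb was lower (-0.82, adjusted p = 0.0356). Acta1 and Myl1 also lie high on the scale. Myl2 is the median of 2 unlike probesets, which differed by -0.985 (naïve mean 10.01) and by -0.059 (naïve mean 5.86) at 14 days. Its departure from the other members therefore rests in part on the dimmer probeset. Without naïve replicates 4 and 5, and with the hair follicle score added as covariate, none was called in either direction. At 7 days no member was called on this scale, with 2 lower and 4 higher at an unadjusted p under 0.05, where 0.0141% of all genes were called lower and 1.47% higher. Between the times none was called either, with 2 lower and 2 higher at an unadjusted p under 0.05, where 0% and 0.00703% of all genes were called.

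Tpm1 and Tpm3 encode tropomyosins that are made in muscle and, from other promoters and exons, in many other cells. They were the only members with a positive change at 14 days, and they and Myl2 were chosen after their values were seen. Like several other members named above, they lie outside the rule by which genes were named. Tpm1 measured 9.41, 9.87 and 11.74 at the lowest, median and highest naïve array, 11.18, 10.61, 10.61, 11.30 and 11.33 at 7 days, and 11.50, 11.27, 11.35, 11.33 and 10.92 at 14 days. Naïve replicates 1 and 2 were the highest for Tpm1, and naïve replicates 3 to 6 were all below the denervated arrays. Its change at 14 days was 0.91 (SE 0.38, adjusted p = 0.0891), and that of Tpm3 was 0.36 (SE 0.16, adjusted p = 0.116).

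The probesets of these genes went in both directions. Of the 7 probesets of Tpm1, 3 were negative at 14 days, and these were the brightest, with naïve means of 13.36, 13.09 and 12.91 and differences of -0.45, -0.66 and -0.78. They followed the median of the members over the 16 arrays, with Pearson correlations from 0.940 to 0.987. The probeset that set the median value of Tpm1 had a naïve mean of 10.36, a difference of 0.91 and a correlation of -0.859. With the brightest probeset in place of the median, the change of Tpm1 at 14 days was -0.45, so its direction rests on the choice of probeset. Of the 12 probesets of Tpm3, 3 were negative, with the lowest at -0.54 and the highest at 0.69. The other 11 members with more than 1 probeset had no positive probeset at 14 days.

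**Figure D5:**
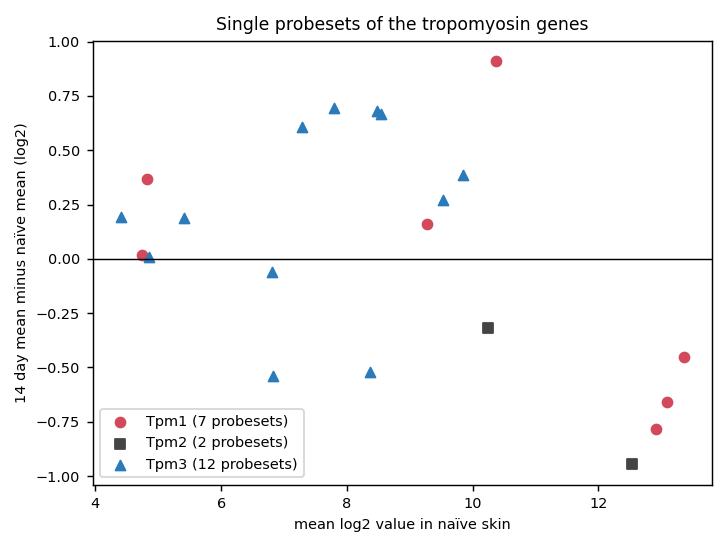
Each point is 1 probeset of Tpm1 (7), Tpm2 (2) or Tpm3 (12), with its mean log2 value over the 6 naïve arrays on the x axis and the 14-day mean minus the naïve mean on the y axis. The 3 brightest probesets of Tpm1 lie below 0, at -0.78 to -0.45, and the remaining 4 above it.

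Actc1, the cardiac actin, could not be separated from Acta2, the smooth muscle actin, since its 5 probesets are annotated to both. Their naïve means ran from 5.07 to 7.71, and the 14-day means differed from the naïve means by -0.87 to -0.04. Correlations with the median of the members over the 16 arrays ran from 0.466 to 0.944. Of 10 smooth muscle genes, 6 were also lower at 14 days, against 14.6% of all genes.

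Across arrays the members rose and fell together. The Pearson correlation of a member with the median over the other members had a median of 0.951 over the 16 arrays and exceeded 0.9 in 36 of 50 members. Over the 6 naïve arrays alone its median was 0.972, and 44 members exceeded 0.9. Points share the array and with it the amount of muscle in the sample, so these values are descriptions. The highest values over 16 arrays were those of Myom1 (0.994), Tmod1 (0.992) and Jph1 (0.991), and the negative ones those of Tpm1 (-0.888) and Tpm3 (-0.615).

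Some members followed the others in naïve skin and departed at 7 days. Csrp3 correlated at 0.991 over the naïve arrays and at -0.214 over the 5 arrays of 7 days, Mybph at 0.930 and -0.897, Casq2 at 0.886 and -0.173, and Ankrd2, a stress-responsive ankyrin protein of the Z disc and nucleus, at 0.880 and 0.287. With 5 arrays such correlations are imprecise, and the difference was not tested. Mybph at 7 days was highest in replicates 1 and 3, the arrays lowest in the median of the members.

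A wider list of 64 measured genes of the sarcomere and of excitation-contraction coupling that are not members gave 37 lower and 2 higher at 14 days. It shares Myh1, Myh2, Myh4, Tnni2, Tnnt3, Cacna1s, Scn4a and Clcn1 with the 13 skeletal muscle genes above, so those counts are not separate. Of all genes, 14.6% were lower and 8.95% higher. At 7 days 1 was lower and 1 higher, against 2.66% and 7.85% of all genes. Between the times 0 were lower and 2 higher, against 10.1% and 8.86% of all genes. At an unadjusted p under 0.05, 12 were lower between the times, a share close to the 18.7% of all genes. In this list Myh2 and Myh4, fast myosin heavy chains, changed by -1.56 (SE 0.46, adjusted p = 0.0273) and -1.73 (SE 0.53, adjusted p = 0.0317) at 14 days. Smaller changes were those of Myh1 (-0.65, SE 0.15, adjusted p = 0.00999) and Tnnt3 (-0.94, SE 0.31, adjusted p = 0.0395), also of fast muscle. Tnni2, another fast muscle gene, differed by -0.83 (SE 0.31, adjusted p = 0.062) and did not pass. Cacna1s, the voltage sensor that opens Ryr1, changed by -1.66 (SE 0.47, adjusted p = 0.0245). Trim63, a ubiquitin ligase of muscle atrophy, changed by -1.77 (SE 0.40, adjusted p = 0.00897), and Sgcb, beta-sarcoglycan, by -1.61 (SE 0.34, adjusted p = 0.00691). The 2 higher at 14 days were Dmd, dystrophin (0.38, SE 0.13, adjusted p = 0.0437), and Tnni3, cardiac troponin I (0.16, SE 0.05, adjusted p = 0.0317), the latter near the lower end of the scale at 5.20.

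At 7 days S100a1, a calcium-binding protein that acts on the ryanodine receptor, was lower (-0.99, SE 0.19, adjusted p = 0.00689), and Fkbp1a, which binds that receptor and is made in most cells, was higher (0.42, SE 0.10, adjusted p = 0.0147). These 2 genes and Kcnj2 below were named after their values were seen, S100a1 and Fkbp1a as the only genes of the list called in their direction at 7 days and Kcnj2 as 1 of 2 called higher between the times. Chrna1, an acetylcholine receptor subunit likewise named after its value was seen, had the largest change of the list at 7 days. It differed by 1.60 (SE 0.51, adjusted p = 0.0568) and did not pass. Relative to the member median it was called higher (2.27, adjusted p = 0.0421), against 1.47% of all genes. The cause was not tested. From 7 to 14 days Tnni3 (0.25, SE 0.05, adjusted p = 0.00661) and Kcnj2, a potassium channel (0.24, SE 0.07, adjusted p = 0.0356), were higher. Both lay near the lower end of the scale, with 14-day means of 5.20 and 4.97. Both comparisons with naïve skin share the 6 naïve arrays, so the values at 7 and 14 days are not independent of each other. Nothing in the labels says that the samples of a group differ in batch. The p-values of the main fit rest on 1 estimate of the spread between rats, shared by the 3 groups. Over the members the median SD was 1.02 in naïve skin, 0.553 at 7 days and 0.220 at 14 days. The shared estimate thus does not describe the spread of each group.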

How the data were processed

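Per the labels and the methods, RNA of 16 skin samples was measured on 1 array each, and the authors deposited log2 expression values of 31099 probesets after robust multi-array averaging (RMA). The submitters' processing notes list R 3.0.1, and no version of RMA is stated in them. A gene's value is the median of the probesets annotated to that gene alone. Left out were 57 controls, 9780 probesets without a gene and 436 with more than 1, following the study's methods, and 14217 genes remained. RefSeq symbols of GRCr8 served for matching. Groups were taken from the labels.

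In R 4.3.3, limma 3.58.1 fitted group means of all arrays in 1 model (6 naïve, 5 at 7 days, 5 at 14 days). P-values were adjusted by the method of Benjamini and Hochberg across the 14217 genes, and an adjusted p under 0.05 was called. A second fit first subtracted, array by array, the median over the other members. Exact permutation tests were two-sided and enumerated all 462 (against naïve skin) or 252 (14 against 7 days) regroupings. The fits were tested on simulated data with 1 SD per gene for all groups and, for the main fit, noise independent between genes. The unequal spread of the members between groups was thus not covered, nor, for the main fit, their joint variation. Likeness was the Pearson correlation over arrays. The number of arrays limits the precision, and no depth applies.

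The members and lists were chosen with earlier results of these data known. The rule for naming took, in each role, the members with the largest statistic and the smallest change at 14 days. It also took a set of members written down with it. Other members are named in the text with their changes but lie outside this rule. Counts of members and of partner genes were recomputed with other summaries of probesets, without dim genes, with other scalings, array weights, moderation and subsets of arrays, with a replicate block or a hair follicle covariate, and with another threshold or test.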

Additional observations from a re-analysis of the deposited data

Results flagged for a closer look

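Of 87 sets of replicates checked (28 members and the median over the members, in 3 groups), 6 held an array that stood apart from its group, and chance gives about 1 in 20. All 6 were in denervated skin and none in naïve skin. At 14 days, replicate 1 was the lowest array of Des (9.86, the others 10.09 to 10.18), of Trdn (5.91, the others 6.28 to 6.42) and of Ttn (11.70, the others 11.99 to 12.11). Replicate 5 was the highest of Mylk2 (7.83, the others 7.35 to 7.49), and replicate 3 the highest of Myl2 (7.89, the others 7.19 to 7.38). At 7 days, replicate 4 was the highest of Ankrd2 (8.13, the others 7.14 to 7.40).

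By the test of 14 against 7 days in limma, the change against naïve skin differed between the times for 5 of 50 members. In that comparison 10.1% of all genes were called lower, so the share of members in the main fit was near that of all genes. The difference was -1.46 for Csrp3, -1.28 for Tcap, -1.27 for Des, -1.23 for Klhl41 and -1.10 for Mb, with no overlap between the arrays of the 2 times in any of them.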

How the results depend on the processing

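The counts of members and of the 64 partner genes called depended on the arrays and settings, and are given where they moved by more than 1.5 times. The share of all genes called is not given beside them. The relative scale is that after the median over the other members was subtracted. With the probeset of the highest mean, limma called at 7 days 1 member higher, and at 14 days on the relative scale 2 members lower and 10 higher, and between the times 2 partner genes lower. With the mean over probesets, the fit gave at 7 days 1 member higher and on the relative scale 1 member higher. Without the dimmest 25% of genes, limma called at 7 days 2 partner genes higher, and at 14 days 1 partner gene higher, and between the times 0 partner genes higher. With array medians subtracted, the fit gave at 7 days 3 partner genes lower and 2 higher, and at 14 days 0 partner genes higher. After a further quantile normalisation, limma called at 14 days on the relative scale 2 members lower and 1 partner gene higher, and between the times 0 members lower and 1 partner gene higher. With array weights, the fit gave at 7 days 35 members lower and 2 higher, on the relative scale 6 members lower and 15 higher and 45 partner genes lower, and at 14 days 2 members higher, on the relative scale 15 members lower and 21 higher and 4 partner genes higher, and between the times 14 members lower, on the relative scale 6 members lower and 12 higher and 15 partner genes lower and 4 higher. With trended and robust moderation, limma called at 14 days on the relative scale 0 members lower and 2 higher. With only the 2 groups compared, the fit gave at 7 days 0 members lower and 0 partner genes higher, and at 14 days on the relative scale 0 members lower and 3 higher and 23 partner genes lower and 0 higher, and between the times 20 members lower, on the relative scale 3 members lower and 5 higher and 25 partner genes lower. With the hair follicle score added as covariate, the calls were at 7 days 4 members higher, on the relative scale 1 member lower and 1 higher and 3 partner genes lower, and at 14 days 0 members lower, on the relative scale 0 members lower and 0 higher, 0 partner genes lower and 0 higher and a median change of -0.0887, and between the times 1 member higher, on the relative scale 1 member higher and 1 partner gene lower. Without naïve replicates 1 and 2, limma called at 7 days 44 members lower and 2 higher, on the relative scale 5 members lower and 12 higher and 51 partner genes lower, and at 14 days 2 members higher, on the relative scale 8 members lower and 13 higher and 5 partner genes higher, and between the times 19 members lower, on the relative scale 5 members lower and 5 higher and 27 partner genes lower. Without naïve replicates 4 and 5, the fit gave at 7 days 0 members lower and 0 partner genes higher, and at 14 days 1 member lower, on the relative scale 0 members lower and 0 higher and 3 partner genes lower and 0 higher, and between the times 5 partner genes lower. At an adjusted p under 0.01, limma called at 7 days 0 partner genes higher, and at 14 days 2 members lower, on the relative scale 0 members lower and 2 higher and 3 partner genes lower and 0 higher, and between the times 0 members lower and 1 partner gene higher. With the exact permutation test, the calls were at 7 days 0 members lower and 0 partner genes lower and 0 higher, and at 14 days 0 members lower, on the relative scale 0 members lower and 0 higher and 0 partner genes lower and 0 higher, and between the times 13 members lower and 13 partner genes lower. Where no member was called lower, 4 were at an unadjusted p under 0.05 at 7 days with only the 2 groups in the fit, and 1 with the exact permutation test. The 4 members higher at 7 days with the hair follicle score were Actn2, Csrp3, Des and Mb, and Mlf1 was the member higher between the times.

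When single arrays were omitted, the members lower numbered 1 to 21 at 7 days, 8 to 45 at 14 days and 0 to 10 between the times, and members higher 0 to 1, 0 to 2 and 0 throughout. On the relative scale, members lower were 0 to 5, 0 to 6 and 0 throughout and members higher 0 to 5, 2 to 12 and 0 throughout, in the same order. Partner genes lower were 1 to 31, 12 to 50 and 0 to 9, and higher 1 to 2, 0 to 4 and 1 to 3. The median change of the members ran from -0.91 to -0.39, -1.55 to -1.02 and -0.80 to -0.44. Of the 16 members named by the rule and called at 14 days, 7 were called whichever array was left out (Des, Klhl41, Ky, Ryr1, Tcap, Tpm2 and Txlnb), and none of the 5 called between the times was.

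Among the members with full values, some changes had the opposite sign under an alternative, and the cause was not tested. With the probeset of the highest mean, the sign turned at 7 days for Tpm1 (-0.0737), and at 14 days for Tpm1 (-0.45), and between the times for Tpm1 (-0.38). With the mean over probesets, the sign turned at 14 days for Tpm1 (-0.0615), and between the times for Tpm1 (-0.0746). With array medians subtracted, the sign turned between the times for Tnnc1 (0.0365). After a further quantile normalisation, the sign turned between the times for Tnnc1 (0.13) and Tpm3 (0.0401). With array weights, the sign turned at 7 days for Mb (-0.0482), and between the times for Tnnc1 (0.16). With the hair follicle score added as covariate, the sign turned at 7 days for Acta1 (0.0272), Ankrd2 (0.32), Atp2a1 (0.0222), Des (0.53), Klhl41 (0.33), Mybpc2 (0.00286), Myl1 (0.11), Neb (0.70), Ryr1 (0.0945), Tcap (0.12), Tnnc2 (0.0710), Tpm1 (-0.0646), Tpm2 (0.0892) and Ttn (0.11), and at 14 days for Ankrd2 (0.12), Casq1 (0.0798), Casq2 (0.31), Csrp3 (0.41), Mb (0.0490), Myl1 (0.0679), Myl2 (0.29), Tnnc1 (0.32) and Tpm1 (-0.29), and between the times for Casq1 (0.14), Dhrs7c (0.52), Ky (0.0696), Tnnc1 (0.45) and Tpm1 (-0.23). Without naïve replicates 1 and 2, the sign turned at 7 days for Csrp3 (-0.15) and Mb (-0.23). Without naïve replicates 4 and 5, the sign turned at 7 days for Ankrd2 (0.11), Des (0.23), Klhl41 (0.0614), Neb (0.38) and Tpm2 (0.00138). With single arrays left out, changes ran across 0 for Ankrd2 at 7 days from -0.21 to 0.0907, Dhrs7c between the times from -0.67 to 0.13, Tnnc1 between the times from -0.32 to 0.27, Tpm3 between the times from -0.15 to 0.0205 and Casq2 between the times from -0.0276 to 0.23.

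The shared replicate numbers mark no pairing. Deviations from the group means of same-numbered arrays correlated between -0.55 and 0.58 over all genes. With the replicate number as a block, limma called at 7 days 0 partner genes higher, and at 14 days 7 members lower, on the relative scale 0 members lower and 2 higher and 8 partner genes lower and 0 higher, and between the times 3 members lower and 1 partner gene higher. No other count moved by over 1.5 times.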
